A study of Zea mays with 12 samples.

Results

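The cuticular wax genes of maize described here are 5 of the 39324 genes in the deposited gene table, chosen by their gene model IDs. They are gl1 (Zm00001d020557), gl4 (Zm00001d051787), gl8 (Zm00001d017111), gl2 (Zm00001d002353) and fdl1 (Zm00001d022227). The symbols came with the selection, since the files carry IDs alone. All 5 were present and all 5 passed the filter on low counts.

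RNA was sequenced from shoot apices of maize inbred line B104 grown for 7 days. Each apex comprised the meristem, primordia from plastochron 0 to plastochron 5 and leaf sheath. The plastochron number gives the position of a primordium counted from the youngest. The mutants were homozygous for loss-of-function alleles of both TOO MANY LATERALS genes (tml1;tml2), made with CRISPR/Cas9, and the wild types were siblings from the same segregating material. Each genotype had 3 samples, numbered 2, 3 and 4, and each sample was sequenced in 2 runs. The labels mention 3 individual apices and also pooled primordia, so the number of apices behind a sample is not settled by their wording. The comparison asked which transcripts depend on the tml genes where veins are specified. The files pair no ID with tml1, tml2 or a tissue marker, so the genotype and tissue rest on the labels.

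The plant cuticle is a layer of cutin and wax laid down by epidermal cells. Its waxes are made from very-long-chain fatty acids, which an elongase complex in the endoplasmic reticulum builds by repeated rounds of condensation, reduction and dehydration before they are turned into aldehydes, alcohols and alkanes. In maize the glossy mutants lose the wax bloom of juvenile leaves, which gives the genes their name. Gene gl4 encodes a ketoacyl-CoA synthase, the condensing enzyme, and gl8 the ketoacyl reductase of the same complex. Gene gl2 encodes a member of the BAHD acyltransferase family, related to Arabidopsis CER2, which acts in elongation. Gene gl1 is related to Arabidopsis CER3, which acts in the path to alkanes. The gene fdl1 (fused leaves1) encodes a MYB transcription factor that controls cuticle deposition in the maize embryo and seedling.

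Genes gl1 and gl4 differed more between samples of one genotype than between the genotype means. Both were high in wild type 2, wild type 4 and mutant 3 and low in wild type 3, mutant 2 and mutant 4. The regulator fdl1 ran the other way, lowest in the 3 samples where gl1 and gl4 were high. Gene gl8 had the same 3 highest samples as gl1 and gl4, over a narrower range, and gl2 stood low in mutant 4 alone. None of the 5 genes passed the test of mutant against wild type.

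Gene gl4, the condensing enzyme, had the widest range. Its level in TPM (transcripts per 1000000 transcripts, which takes account of transcript length) was 46.1 in wild type 2, 0.804 in wild type 3 and 28.6 in wild type 4. In the mutants it was 5.82 in mutant 2, 27.5 in mutant 3 and 1.34 in mutant 4. The highest and lowest samples thus stood 57.3-fold apart, and both were wild types. The low end rested on few reads: 26 estimated counts in wild type 3 (15 and 11 in the runs, 95% exact Poisson interval 17 to 38.1) and 41 in mutant 4, against 1543 in wild type 2. Such intervals cover counting error only. Within the mutants the range was 20.6-fold.

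Gene gl1, of the path to alkanes, split the samples in the same way. Its level was 26.7 TPM in wild type 2, 2.4 TPM in wild type 3 and 23.5 TPM in wild type 4. It was 6.83 TPM in mutant 2, 27.6 TPM in mutant 3 and 5.16 TPM in mutant 4. The 3 high samples lay within 1.18-fold of each other and the 3 low ones within 2.85-fold, with a step of 3.44-fold between the sets. Each set held samples of both genotypes. In bulk apices, fewer cells that express a gene and less RNA per cell cannot be told apart.

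**Figure D1:**
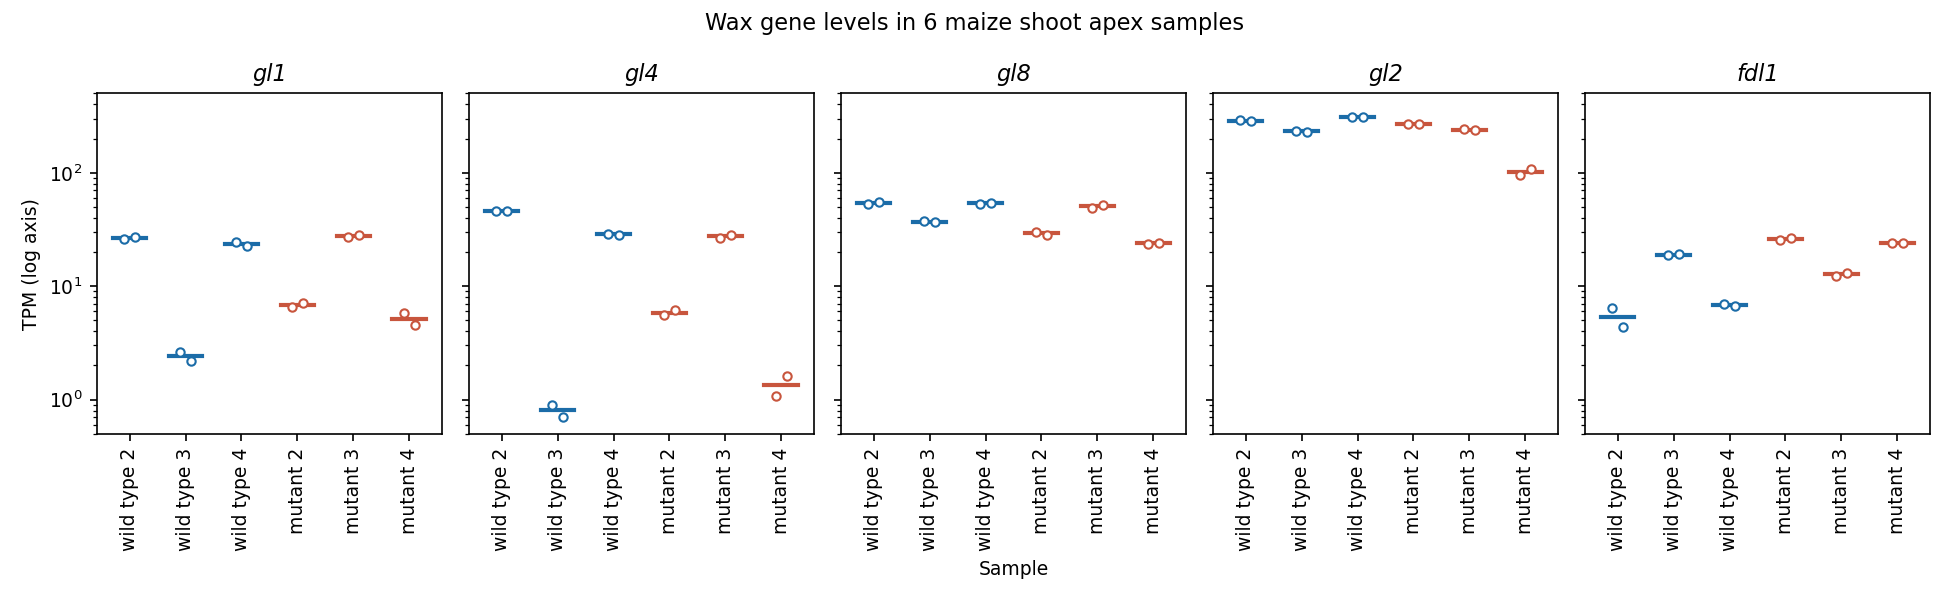
Level of each wax gene (TPM, log axis) in the 6 samples; lines are the mean of both runs, open circles the runs, blue the wild types and red the tml1;tml2 mutants. Genes gl1 and gl4 drop in wild type 3, mutant 2 and mutant 4, where fdl1 is at 18.9, 26 and 24 TPM.

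Gene gl8, the reductase of the elongase, followed gl1 and gl4 in part, over a narrower range. It was at 54.1 TPM in wild type 2, 36.9 TPM in wild type 3 and 53.8 TPM in wild type 4. In the mutants it was at 29.3 TPM in mutant 2, 50.8 TPM in mutant 3 and 23.9 TPM in mutant 4. Its 3 highest samples were those of gl1 and gl4, and its whole range was 2.27-fold. The gap below them was 1.38-fold, less than the 1.55-fold range of its 3 low samples. Wild type 3, the lowest sample for gl1 and gl4, was the highest of those low samples. Maize has a close copy of this gene, gl8b, and estimated counts can be divided between such copies, so the level of gl8 is uncertain to that extent.

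Gene gl2, the BAHD family member, was the most abundant of the 5 in every sample. It stood at 289 TPM in wild type 2, 231 TPM in wild type 3 and 310 TPM in wild type 4. The mutants had 270 TPM in mutant 2, 240 TPM in mutant 3 and 102 TPM in mutant 4. The 5 samples beside mutant 4 lay within 1.34-fold of each other, and mutant 4 was 2.27-fold below the nearest of them. The samples that were low in gl1 were therefore not all low in gl2: mutant 2, with gl1 at 6.83 TPM, had more gl2 than mutant 3. Of the summed TPM of the 4 gl genes, gl2 made up 69.4% to 86.6% in a sample.

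The regulator fdl1 was at 5.36 TPM in wild type 2, 18.9 TPM in wild type 3 and 6.79 TPM in wild type 4. It was at 26 TPM in mutant 2, 12.7 TPM in mutant 3 and 24 TPM in mutant 4. Among the wild types its one high sample, wild type 3, had the lowest level of each of the 4 gl genes. Among the mutants its lowest sample, mutant 3, was the highest in gl1, gl4 and gl8. The ratio of fdl1 to gl1 within a sample was 0.201 in wild type 2, 0.289 in wild type 4 and 0.459 in mutant 3. It was 3.8 in mutant 2, 4.64 in mutant 4 and 7.88 in wild type 3, so fdl1 exceeded gl1 in exactly the 3 samples low in gl1.

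The runs of one library differed less than the full range over the samples. The higher run exceeded the lower by at most 1.28-fold for gl1, 1.51-fold for gl4, 1.06-fold for gl8, 1.11-fold for gl2 and 1.48-fold for fdl1, on TPM. The widest of these, for gl4 in mutant 4, was between 17 and 24 counts. That of fdl1 was in wild type 2, its lowest sample, between 127 and 80 counts. It exceeded the 1.26-fold difference in fdl1 between wild types 2 and 4.

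In order of mean level over the 6 samples, gl2 led with 240 ± 74.1 TPM (SD, n = 6). It was followed by gl8 with 41.5 ± 13.3 TPM, gl4 with 18.4 ± 18.5 TPM, fdl1 with 15.6 ± 8.7 TPM and gl1 with 15.4 ± 11.7 TPM. Gene gl2 exceeded gl8 in 6 of 6 samples, by 2.52 ± 0.39 (SD) on the log2 scale of TPM, and gl8 exceeded gl4 in 6 of 6, by 2.34 ± 2.1. The lead of gl8 over gl4 was uneven. In wild type 2 they stood at 54.1 and 46.1 TPM, in wild type 3 at 36.9 and 0.804 TPM. Each of these neighbour pairs reached p = 0.0312 in an exact two-sided sign-flip permutation test, the smallest p that 6 samples allow, and 0.0625 after Benjamini-Hochberg adjustment over the 4 neighbour pairs. Neither of these pairs passed the adjusted threshold. At that smallest p, a pair could pass only if more of the 4 pairs reached it. The last 3 genes changed order from sample to sample. Gene gl4 exceeded fdl1 in 3 of 6 samples (exact permutation p = 0.562, adjusted 0.75), with a mean log2 difference of −0.76 although its mean TPM was higher. Gene fdl1 exceeded gl1 in 3 of 6 samples (exact permutation p = 0.75, adjusted 0.75).

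The spread of gl1 and gl4 was wide beside that of other genes. The SD of log2 CPM (counts per 1000000 counts of a sample) within a genotype was 2.75 for gl4 and 1.71 for gl1, where the median of the 22772 genes tested was 0.33. Among tested genes, 90 had a larger SD than gl4, and only 4 of these were among the 14369 genes at least as abundant as gl4 by mean log2 CPM. For gl1 the number was 659, of which 45 were among the 10463 genes at least as abundant. By mean log2 CPM, 36.9% of tested genes were less abundant than gl4, against 59.2% by mean TPM. The SD was 0.73 for fdl1, 0.62 for gl2 and 0.51 for gl8, which 83.4%, 78.7% and 71.6% of tested genes fell below. The difference between genotypes held 1.64% of the variance of gl1 and 4.12% of that of gl4, against a median of 24.5% over all genes. It held 39.6% for gl8, 32% for gl2 and 41.9% for fdl1.

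**Figure D2:**
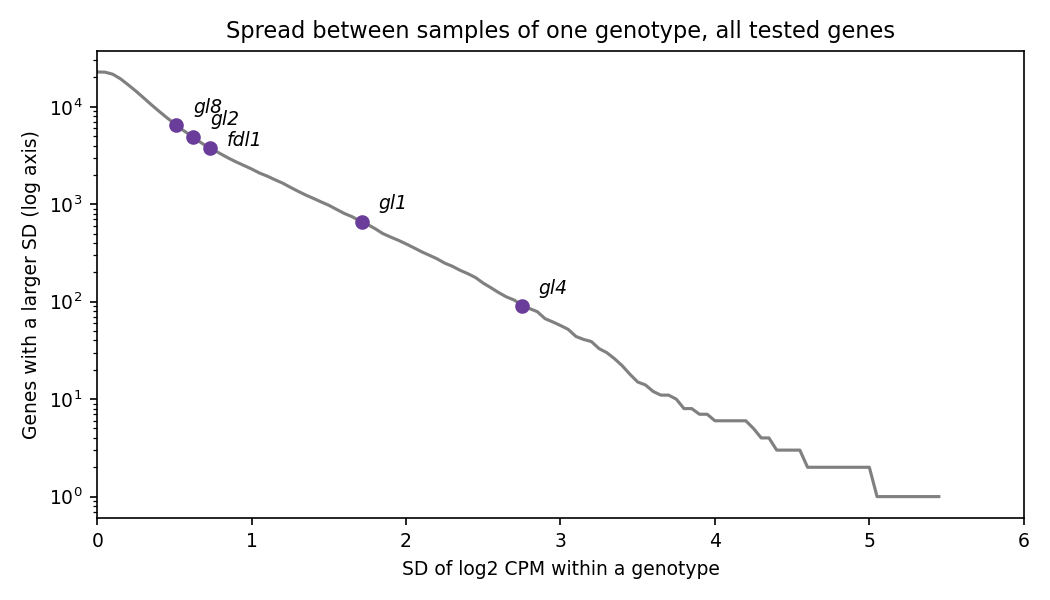
Number of tested genes (log axis) with a within-genotype SD of log2 CPM larger than the value on the horizontal axis; points mark the wax genes. Gene gl4 lies far down the curve at an SD of 2.75, gl1 at 1.71, and the other 3 genes between 0.51 and 0.73.

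How far the genes varied together was tested for the 10 pairs over the 6 samples on log2 CPM, with exact permutation p-values adjusted over the 10 pairs. Genes gl1 and gl4 were the 1 pair past the adjusted threshold of 0.05, with Pearson r = 0.98 (exact permutation p = 0.00278, adjusted 0.0278) and Spearman rho = 1 (the same p-values). That p is the smallest that 6 samples allow in this two-sided test. Both genes step between the same sets of 3 samples, and r carries that step. For gl4 the step was 4.73-fold, less than the 7.24-fold range inside its low set. Sets of 3 are too small for a test within them. Without the 2 samples farthest from the median of gl1, r was 0.97. Those were wild type 3 and mutant 4, which left mutant 2 as the only low sample beside the 3 high ones. This r thus rests on mutant 2 and still carries the step. The adjusted p was 0.0556 on log2(TPM + 1), where the 3 samples high in gl1 change order, and 0.0556 in either run alone, so the call did not outlast these changes. Of all tested genes, 23 were at least as close to gl1 in pattern as gl4 was, with gl4 itself counted among them.

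The other 3 pairs with gl1 did not pass. Without the 2 farthest samples, these pairs too kept mutant 2 as the only sample low in gl1. Genes gl1 and gl8 had r = 0.79 (exact permutation p = 0.075, adjusted 0.123) and rho = 0.77 (exact permutation p = 0.103, adjusted 0.114), with r = 0.97 without the 2 farthest samples, and 4.27% of tested genes were as close to gl1 as gl8. Genes gl1 and fdl1 had r = −0.81 (exact permutation p = 0.0861, adjusted 0.123) and rho = −0.77 (exact permutation p = 0.103, adjusted 0.114), with r = −0.88 without the 2 farthest, and 3.95% of tested genes were at least as opposed to gl1. Genes gl1 and gl2 had r = 0.54 (exact permutation p = 0.308, adjusted 0.308) and rho = 0.83 (exact permutation p = 0.0583, adjusted 0.114), and r was 0.31 without the 2 farthest.

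**Figure D3:**
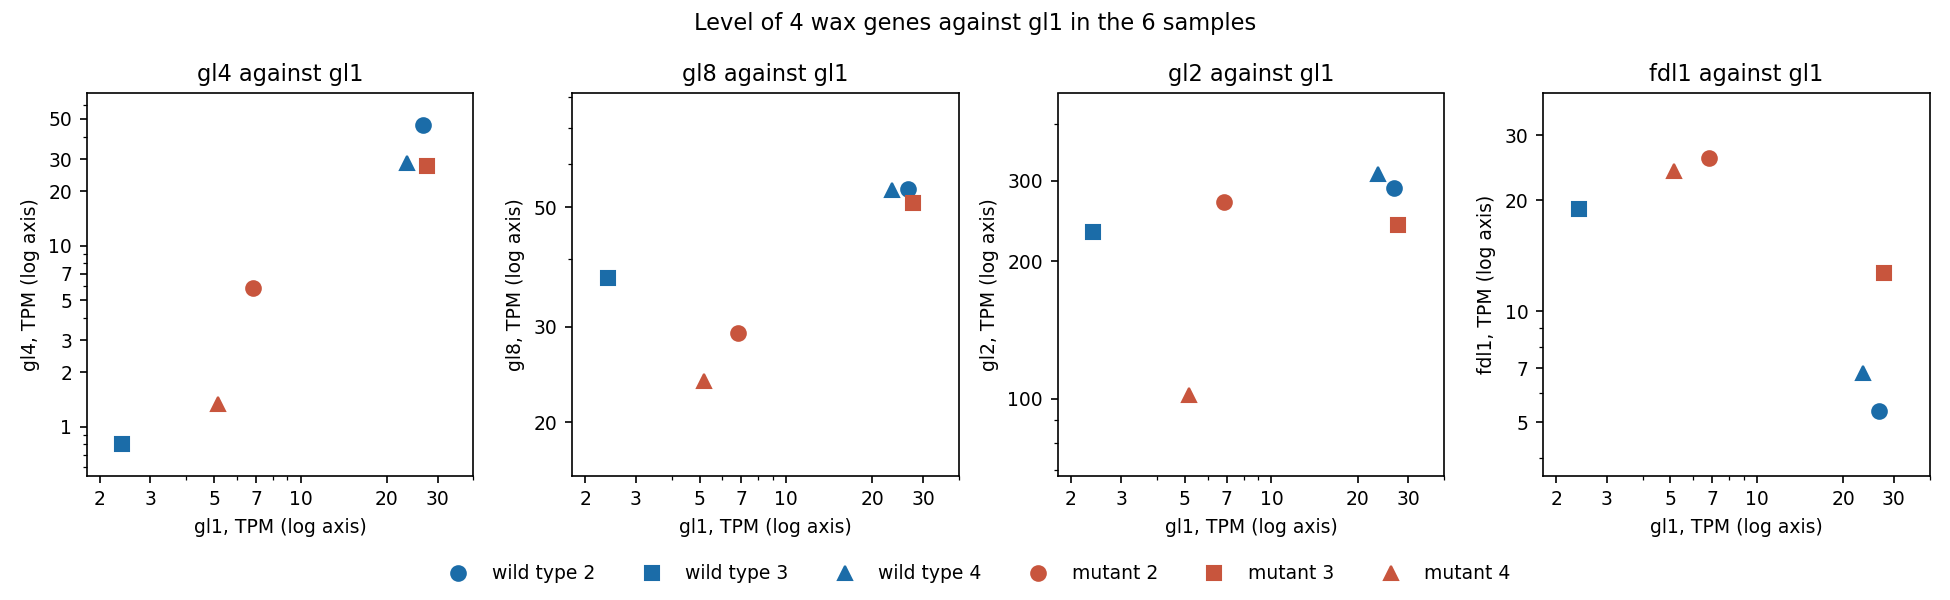
Level of gl4, gl8, gl2 and fdl1 (vertical axes) against gl1 (horizontal axes), all in TPM on log axes, with 1 point per sample, wild types in blue and mutants in red. Genes gl4 and gl8 are high where gl1 is above 23 TPM, fdl1 is low there, and gl2 is low only in mutant 4.

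Of the 6 pairs without gl1, the one with the lowest p was gl8 and fdl1, the reductase and the regulator, in opposition with Pearson r = −0.89 (exact permutation p = 0.0139, adjusted 0.0694) and Spearman rho = −0.89 (exact permutation p = 0.0333, adjusted 0.114). Without the 2 samples farthest from the median of gl8, r was −0.90. Those were mutant 2 and mutant 4, which left wild type 3 as the only sample low in gl8, here and for gl8 and gl2. The pair of elongase genes gl4 and gl8 had r = 0.82 (exact permutation p = 0.0694, adjusted 0.123) and rho = 0.77 (exact permutation p = 0.103, adjusted 0.114), with r = 0.96 without the 2 farthest samples. Genes gl8 and gl2 had r = 0.82 (exact permutation p = 0.0444, adjusted 0.123) and rho = 0.83 (exact permutation p = 0.0583, adjusted 0.114), with r = 0.86 without the 2 farthest. None of the 6 passed the adjusted threshold. For gl4 with gl8, gl2 or fdl1, the 2 farthest samples were wild type 3 and mutant 4, which left mutant 2 as the only sample low in gl4.

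The remaining 3 pairs involved gl2 or the regulator. Genes gl4 and fdl1 had r = −0.82 (exact permutation p = 0.0583, adjusted 0.123) and rho = −0.77 (exact permutation p = 0.103, adjusted 0.114), with r = −0.96 without the 2 farthest. Genes gl4 and gl2 had r = 0.68 (exact permutation p = 0.144, adjusted 0.16) and rho = 0.83 (exact permutation p = 0.0583, adjusted 0.114), but r was 0.41 without the 2 farthest samples. Genes gl2 and fdl1 had r = −0.60 (exact permutation p = 0.122, adjusted 0.153) and rho = −0.60 (exact permutation p = 0.242, adjusted 0.242), with r = −0.63 without the 2 farthest.

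Deviations from the mean of each genotype showed the same signs. On these, r was 0.98 for gl1 and gl4, 0.91 for gl1 and gl8 and −0.96 for gl1 and fdl1. They gave 0.91 for gl4 and gl8 and −0.92 for gl4 and fdl1, all without a test. They also gave −0.82 for gl8 and fdl1, 0.72 for gl8 and gl2, 0.70 for gl4 and gl2, 0.58 for gl1 and gl2 and −0.37 for gl2 and fdl1.

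The wax gene patterns were set beside the main axes of variation of the whole transcriptome. In a principal component analysis of log2 CPM, the first axis took up 46% of the variance and set mutant 4, at 116, apart from wild types 2 and 4, at −84 and −64.5. On the second, with 20.2%, wild type 3 and mutant 2 lay at −58.2 and −59.5 and mutant 3 and wild type 4 at 46.7 and 37.8. Over the 6 samples, gl2 had r = −0.93 with the first component and −0.06 with the second. For gl1 the values were −0.58 and 0.74, for gl4 −0.72 and 0.58, for gl8 −0.83 and 0.44, and for fdl1 0.77 and −0.57. The samples low in gl1 were at an end of one component or the other: mutant 4 on the first, wild type 3 and mutant 2 on the second. Samples high in gl1 lay toward the opposite ends: wild types 2 and 4 on the first, mutant 3 and wild type 4 on the second. The part of these components in the wax gene values was not tested. How many of all genes reach such r values with them was not counted. Without mutant 4, r was −0.94 for gl8 and fdl1, 0.76 for gl4 and gl8, 0.62 for gl8 and gl2 and 0.99 for gl1 and gl4.

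For each wax gene, the gene of most similar pattern over the 6 samples was found by Pearson r on log2 CPM, a measure of shape and not of amplitude. For gl1 this was Zm00001d003246 (r = 0.998), which changed 1.41-fold between its lowest and highest sample where gl1 changed 11.7-fold. For gl4 it was Zm00001d006435 (r = 0.996), a weak gene between 0.201 and 0.582 CPM. For gl8 it was Zm00001d032503 (r = 0.999), between 3.66 and 6.37 CPM. For gl2 it was Zm00001d048336 (r = 0.999), between 51.8 and 63.6 CPM, and for fdl1 it was Zm00001d024640 (r = 0.994), between 13.2 and 21.2 CPM. An r above 0.9 was reached by 265 genes for gl1, 284 for gl4, 485 for fdl1, 1160 for gl8 and 1793 for gl2, so close matches to gl1 and gl4 were fewer than to gl2. None of the closest genes named here by ID was another of the 5 members. Genes gl1 and gl4, at r = 0.98, were each among the other's matches above 0.9.

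Between the genotypes, the 4 gl genes had lower and fdl1 higher means in the mutant, without passing the test. The level of gl4 was 11.6 ± 14 TPM in the mutant and 25.1 ± 22.8 TPM in the wild type (SD, n = 3 each). For gl1 it was 13.2 ± 12.5 TPM in the mutant and 17.5 ± 13.2 TPM in the wild type. For gl8 the values were 34.6 ± 14.3 and 48.3 ± 9.84 TPM, and for gl2 204 ± 89.8 and 277 ± 41 TPM, mutant first. The regulator fdl1 was at 20.9 ± 7.15 TPM in the mutant and 10.3 ± 7.43 TPM in the wild type. For each of the 5 genes the range of one genotype overlapped that of the other, so 0 of 5 had separate groups, where 19.3% of all tested genes did.

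Fitted on all genes with edgeR's quasi-likelihood test, the log2 fold change, mutant over wild type, was −1.29 for gl4 (SE 1.43, adjusted p = 0.687) and −0.59 for gl1 (SE 0.99, adjusted p = 0.795). For gl8 it was −0.63 (SE 0.35, adjusted p = 0.469) and for gl2 −0.59 (SE 0.40, adjusted p = 0.529). For fdl1 it was 0.89 (SE 0.49, adjusted p = 0.469). None of the 5 was called, and the test called 0% of the 22772 genes. At an unadjusted p under 0.05, 0 of the 5 were counted where 12.2% of all genes were. DESeq2 on the same samples called 2.72% of 24166 genes and 0 of the 5, the lowest adjusted p being 0.396 for fdl1. The median log2 fold change was −0.59 over the 5 genes and 0.0047 over all genes tested.

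**Figure D4:**
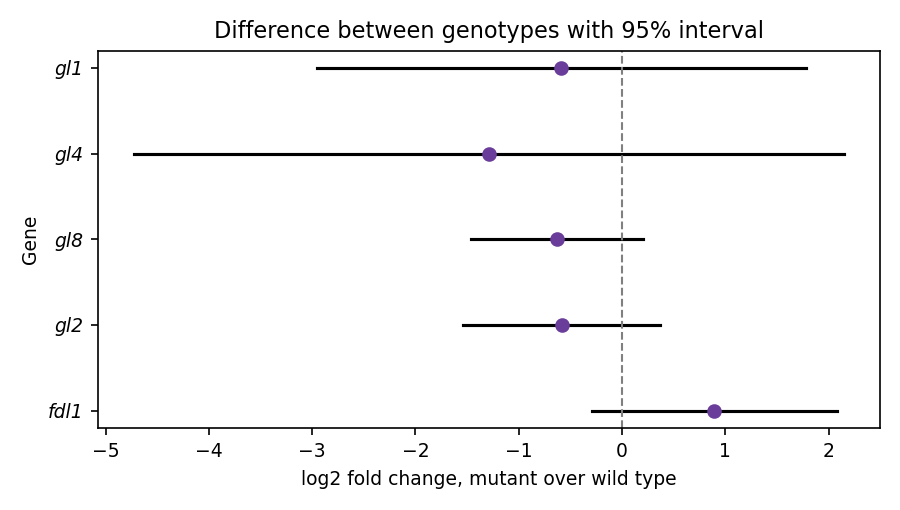
Log2 fold change of each wax gene, mutant over wild type (points), with its 95% interval from the edgeR fit (lines); the dashed line marks no difference. All 5 intervals cross the dashed line, and those of gl1 and gl4 are the widest.

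The intervals show what these samples leave undecided. The 95% interval of the mutant level as a multiple of the wild-type level was 0.0378 to 4.44 for gl4 and 0.129 to 3.43 for gl1. It was 0.363 to 1.15 for gl8, 0.343 to 1.29 for gl2 and 0.818 to 4.23 for fdl1. Without mutant 3, the mutant high in gl1 and gl4, the log2 fold change was −2.99 for gl4 and −1.75 for gl1. Without mutant 4 it was −0.76 for gl4, −0.19 for gl1, −0.40 for gl8, −0.25 for gl2 and 0.82 for fdl1. Without wild type 3 it was 1.55 for fdl1, with an adjusted edgeR p of 0.272.

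Transcript choice could be examined for gl8 alone. The average transcript length of gl1, gl4, gl2 and fdl1 shifted by the same number of bases from sample to sample, as for genes with 1 quantified transcript, and so carries no information on transcript choice. For gl8 it averaged 1205 bases over the mutants (SD 4.08, n = 3) and 1193 bases over the wild types (SD 9.75, n = 3), with an adjusted p of 0.564 in limma's test over 21744 genes, which called 0.0046% of them. The length of gl1 was 1827 ± 3.92 and 1819 ± 10.7 bases in the same groups. In the authors' deposited table of transcripts at an adjusted p of up to 0.05, which lists 15.7% of the IDs of the gene table, 0 of the 5 wax genes appear.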

How the data were processed

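The authors deposited estimated counts, TPM and average transcript length per gene and run, with v4 gene model IDs, per the file headers. Per the submitters' processing notes the tools were STAR, Salmon and DESeq2; neither genome build nor settings are given in the sources used here. Adjusted p-values of the authors' deposited transcript table were used only to see which genes it lists. All per-sample columns were used, with 0 left out.

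Estimated counts of the 2 runs were summed and rounded, and TPM and length were averaged. Sums were 27213052 to 31980536 counts per sample, so 3 counts equal 0.0938 to 0.11 CPM. The main test was edgeR 4.0.16 (R 4.3.3), quasi-likelihood, with TMM scaling, edgeR's expression filter and no covariate. P-values were adjusted over all 22772 genes, with a threshold of 0.05. Log2 CPM used a prior count of 2. Alternatives used DESeq2 1.42.0 and limma 3.58.1. Tests were checked on simulated data. The simulated counts varied less between samples than the typical gene here, and far less than gl1 and gl4. The check thus does not cover power or error at the spread of these genes. P-values measure the spread between samples, whose separate origin the labels only partly state.

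The members and lists were chosen with earlier results of these data known. Named genes were the 5 members and, for each, the gene of highest r. The reference table of 49888 genes (Zm-B73-REFERENCE-NAM-5.0) matched 0 of the 39324 IDs, so the other wax genes and tissue markers that were listed were not analysed here, and no sequence or coordinate is shown.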

Additional observations from a re-analysis of the deposited data

How the results depend on the processing

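The log2 fold changes of the 5 wax genes kept their direction and stayed short of the adjusted threshold in all 18 alternatives each: another tool, scaling, filter or unit, single runs, a length offset, the replicate block and each sample left out. With a sample left out they ranged from −1.75 to −0.19 for gl1, −2.99 to −0.58 for gl4, −1.03 to −0.40 for gl8, −0.85 to −0.25 for gl2 and 0.59 to 1.55 for fdl1. The replicate block gave −0.86, −2.16, −0.69, −0.68 and 1.05 in that order, and 0 calls over all genes. Over the tested genes, samples of the same number deviated from their genotype means with correlations of 0.216, −0.268 and −0.176. Whether the numbers pair the samples was not tested. The 0 genes called by edgeR became 658 with DESeq2 on the 6 samples and 1 with limma on log2(TPM + 0.1), and 2784 had an unadjusted edgeR p under 0.05. The correlation of gl1 and gl4, past the adjusted threshold at r = 0.98, missed it on log2(TPM + 1) (r = 0.976, exact permutation p adjusted to 0.0556), in run 1 alone (0.962) and in run 2 alone (0.99), and in each leave-out (0.968 to 0.99), where 5 samples limit the p; the cause of the others was not tested. It passed with median-of-ratios scaling and as rho. The other 9 pairs kept their sign and stayed short of the threshold where tested. Values centred on genotype means were not tested, since centred values cannot be exchanged between genotypes. The log2 difference of fdl1 over gl1, 0.32 in all samples, ranged from −0.22 to 0.84 over the leave-outs, and was −0.22 without wild type 3, −0.0069 without mutant 2 and −0.065 without mutant 4. The sign-flip tests of the order of levels cannot pass on 5 samples. Depth limits gl4, at 26 and 41 counts in its lowest samples.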
